A study of Homo sapiens with 14 samples.

Results

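Intronic binding sites at which the transcription factor RUNX1 and the corepressor SKI were both found in HL60 cells are described here. HL60 is a human acute myeloid leukaemia cell line. A site was counted when a RUNX1 peak of class intron in the authors' annotation overlapped, by 1 bp or more, a SKI peak in each of 3 SKI peak lists. Of 5581 RUNX1 peaks, 2049 were intronic, and 1021 of these met the rule. These 1021 RUNX1 peaks are called the intronic co-bound sites. Because measured peaks chose them, their number and their strength are a description and carry no test.

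Chromatin immunoprecipitation followed by sequencing (ChIP-seq) was done on 14 samples, and 4 of their peak lists were used. RUNX1 was mapped in unmodified HL60 cells (1 list). SKI was mapped in unmodified HL60 cells (2 lists, replicates 1 and 2) and in CRISPR/Cas9 control HL60 cells labelled CTR-1 (1 list). No treatment is named for any of them, and whether the control cells are a single clone is not given in the sources used here. The other 10 samples, SKI-deleted cells, histone marks, CEBPB and IgG among them, were not analysed here, and nothing was subtracted for them.

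RUNX1 binds a short DNA motif through its Runt domain, pairs with CBFB, and is needed for blood formation. It can recruit coactivators or corepressors. SKI is brought to DNA by partner proteins, the SMADs of TGF-beta signalling being the best known, and carries corepressor complexes with histone deacetylases with it. Introns of blood genes hold many of the enhancers through which such factors act on a promoter that can lie far away. Peak positions below are on hg19. The sequence under the sites is not printed, since the genome of that build was not used here.

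The SKI lists differed in size, with 54841 peaks in replicate 1 of unmodified cells against 14431 (replicate 2) and 14019 (control cells). The list of replicate 1 stood apart: at the co-bound sites the median SKI peak held 546 tags (aligned reads) there, against 75 and 104 in the other lists. Without it, 1050 intronic RUNX1 peaks met the rule. Without replicate 2 the number was 1370, and without the control cells it was 1093. Total library depth is unknown. Fold enrichment below is the authors' value for a peak, as given by the peak caller, and is separate from its tag count. As the lists differ in scale, SKI strengths are compared as percentiles within a list, where 100 is the strongest peak. A percentile also depends on the length of its list. Each list is 1 sample, so intervals cover counting error only and no value describes the spread between cultures.

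Intronic RUNX1 peaks were on SKI in all 3 lists less often than promoter peaks and about as often as intergenic ones. The share was 49.8% for introns (95% Wilson interval 47.7 to 52.0), against 54.5% of all RUNX1 peaks. With the SKI lists cut to the length of the RUNX1 list, the intronic share was 27.1%, and 556 sites met the rule. With full lists the share was 63.7% (61.0 to 66.2) for the TSS class, which the authors defined by a window of 1250 bp, and 49.9% (47.4 to 52.3) for intergenic peaks. Exonic and upstream peaks had shares of 62.7% and 60.5%. The intronic and TSS-class intervals do not overlap, whereas the intronic and intergenic ones nearly coincide. Introns nevertheless supplied the largest class of RUNX1 peaks on SKI in all 3 lists, 33.6% of 3040. They were also the largest class of all RUNX1 peaks, 2049 of 5581, which is a larger share. The list of replicate 2 was the one most often missing. Of the 450 intronic RUNX1 peaks with SKI in 2 lists, 349 lacked replicate 2, 72 lacked the control cells and 29 lacked replicate 1. A further 509 had SKI in 1 list, 508 of these in replicate 1, and 69 had no SKI peak at all. The last share, 3.37%, was lower than the 10.4% of intergenic RUNX1 peaks without SKI.

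**Figure D1:**
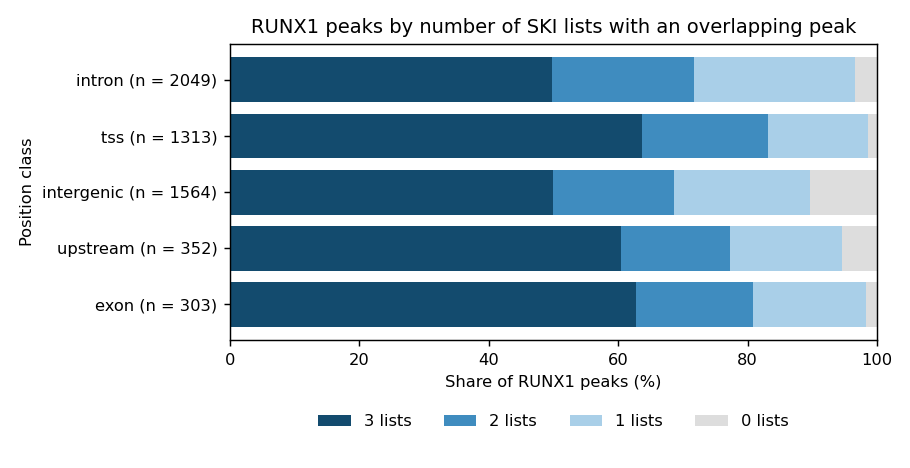
Share of RUNX1 peaks (horizontal axis, percent) with an overlapping SKI peak in 3, 2, 1 or 0 lists, for each position class (vertical axis, with the number of RUNX1 peaks). The darkest part of the intron bar ends at 49.8%, that of the TSS bar at 63.7%, and the grey part without SKI is widest for intergenic peaks.

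The sites that stood highest in all 4 lists were ranked by the lowest of a site's 4 percentiles. The gene given is that of the nearest TSS, which need not be the gene whose intron holds the peak. The best ranked lay at chr2:109830524-109830993, 37203 bp upstream of the pseudogene SNRPGP9. There the RUNX1 fold enrichment was 95.2, and SKI reached 119, 58.5 and 73.4 in replicate 1, replicate 2 and control cells. At LDLRAD3, a gene of a membrane receptor of the LDL receptor family, the site chr11:36112535-36113313 had a RUNX1 value of 88.5 and SKI values of 128, 153 and 99.8. At TSPAN18, a tetraspanin gene, all 4 values were alike, 77.4 for RUNX1 and 102, 95.3 and 92.6 for SKI.

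The site with the highest RUNX1 value of all 1021 was chr8:22573128-22573738, 22572 bp upstream of EGR3, which encodes an immediate-early zinc finger factor. RUNX1 reached 168 there and SKI 125, 41.45 and 57.1. ARHGEF12, the gene of a guanine nucleotide exchange factor also known from a KMT2A fusion in leukaemia, had the next highest RUNX1 value, 156. Its site lay at chr11:120214653-120215625, 7296 bp downstream of the TSS, with SKI at 90.3, 84.9 and 167. KSR1, a scaffold of the RAF, MEK and ERK kinases, had RUNX1 at 85.4 and SKI at 84.4, 61.7 and 106. At DGKZ, a diacylglycerol kinase gene, RUNX1 stood at 108 and SKI at 84.3, 92.7 and 103. PLEC, the gene of the cytoskeletal linker plectin, had a site 1491 bp upstream of the nearest TSS, with RUNX1 at 90.5 and SKI at 78.7, 71.9 and 146. The other sites among the 15 best were nearest MVB12B, RP11-69H7.4, RP11-7F17.7, CSNK2A3, SH3BP5, AC004166.6 and AC004878.5. These AC-numbered genes are pseudogenes on chromosome 7, in a region with near-identical copies, where reads can be placed on the wrong copy, so their values of 131.8 and 66.3 for RUNX1 are uncertain.

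**Figure D2:**
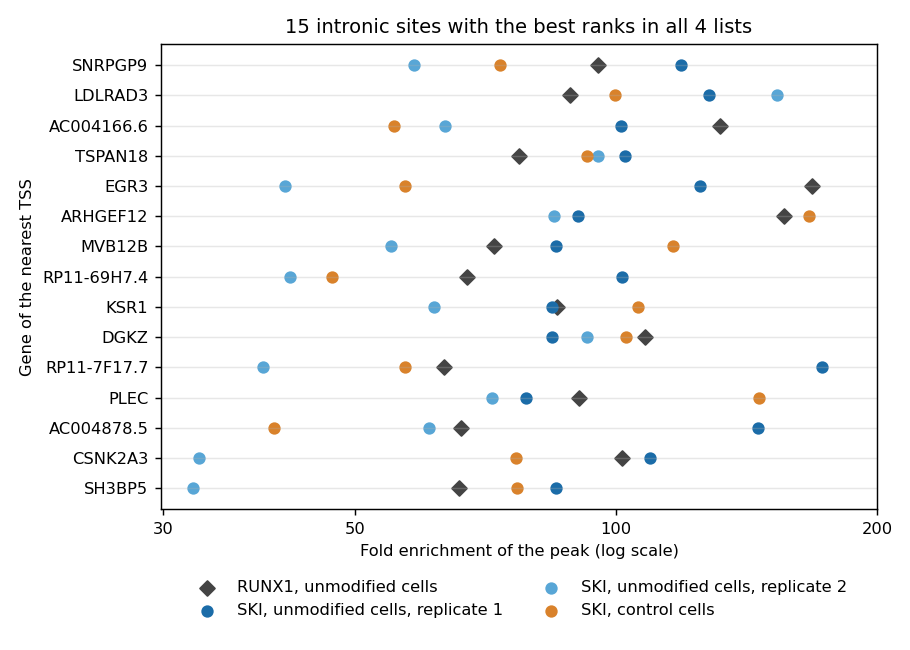
Fold enrichment (horizontal axis, log scale) of RUNX1 (diamonds) and of SKI in 3 lists (circles) at the 15 sites with the best lowest percentile, named by the nearest TSS (vertical axis, best at the top). RUNX1 is highest at EGR3 with 168. At most sites replicate 2 is the lowest of the SKI values, but its whole list also has the lowest median, 10.35 against 18.8 (replicate 1) and 11.6 (control cells).

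High RUNX1 did not go with uniformly high SKI. Of the 10 sites with the highest RUNX1 values, from 115 to 168, EGFLAM had the lowest SKI values in both unmodified lists, 44.5 and 11.0, with 23.8 in control cells and 132 for RUNX1. EGFLAM encodes an extracellular matrix protein. AGTRAP, an angiotensin receptor-associated protein gene, had RUNX1 at 143 and SKI at 52.3, 73.6 and 127. At CTNNA1, the gene of alpha-catenin, RUNX1 was 130.5 and SKI 141, 40.9 and 34.9. ZNRF3, METTL9, ZFP36L2 and SPDYE3 were the other genes. ZFP36L2, an RNA-binding protein that promotes mRNA decay, had RUNX1 at 119 and SKI at 57.3, 19.3 and 53.0. At the other end stood RASA3-IT1, with RUNX1 at 3.62 and SKI at 34.2, 6.44 and 9.81, and the next weakest, RP3-438O4.4, RN7SL862P and PRDM10 among them, had RUNX1 from 4.33 to 5.31. At the 5 weakest RUNX1 sites the SKI percentile ran from 66.1 to 87.958 in replicate 1, from 17.4 to 77.6 in replicate 2 and from 26.6 to 87.3 in control cells, so most lay below the medians of the co-bound sites.

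Genes of 12 lists are described next by how many were nearest to a co-bound site. Over all 13826 protein-coding genes named in any of the 4 lists, 538 were, which is 3.89%. Gene length was not taken into account. Of the 1021 sites the median RUNX1 fold enrichment was 21.1.

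Among the blood transcription factors, 9 of 65 genes (59 of them named in any list) had 15 co-bound sites, with a median RUNX1 value of 20.5. RUNX1 itself had 4. The strongest, chr21:36237717-36238387, had a RUNX1 fold enrichment of 103.85 and SKI values of 72.6, 18.8 and 49.0. A site 22857 bp downstream of a RUNX1 TSS followed with RUNX1 at 61.4 and SKI at 94.7, 28.1 and 61.9. The remaining pair had RUNX1 at 46.9 and 35.7. RUNX1 protein was thus found within introns near its own gene over a stretch of 219270 bp. The paralog RUNX2, a factor of bone formation, had 3 sites with weaker RUNX1. Its RUNX1 values were 18.9, 10.2 and 6.38 from the strongest to the weakest, and its SKI values in the same order were 99.3, 104 and 114 in replicate 1. The other lists ran the opposite way, replicate 2 with 39.2, 24.2 and 23.6, and control cells with 31.3, 19.4 and 14.45. ETV6, an ETS repressor often rearranged in leukaemia, had 2 sites, the stronger with RUNX1 at 54.2 and SKI at 72.7, 87.2 and 54.6. EGR2, ERG, FOXP1, IKZF2 and STAT3 had 1 each, and their RUNX1 values ran from 11.2 at STAT3 to 39.99 at EGR2.

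TGF-beta and SMAD signalling had 6 of 38 genes (36 named) with 9 sites and a median RUNX1 value of 20.01. The gene SKI had 3. The one at chr1:2221850-2222835 had RUNX1 at 37.1 and SKI protein at 114, 52.3 and 63.7. RUNX1 was weaker at the others, 11.5 and 7.28, at percentiles 22.3 and 6.73 of its list. Of the ligands, TGFB2 had a site with RUNX1 at 99.7 and SKI at 88.7, 22.0 and 14.8, so that RUNX1 was at percentile 98.8 of its list there and SKI in control cells at 64.3. Of the receptors, TGFBR1 had RUNX1 at 22.6 and SKI at 81.1, 15.8 and 13.2, and ACVR1B, an activin receptor gene, had RUNX1 at 20.01 and SKI at 63.4, 78.5 and 73.3. SMAD3, which carries the TGF-beta signal to the nucleus, had RUNX1 at 26.8. SMAD7, which inhibits it, had 2 sites with RUNX1 at 18.6 and 17.6 and SKI at 43.0 and 50.5 in control cells.

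For retinoic acid response, the pathway used to mature HL60 cells, 3 of 25 genes (20 named) had 5 sites, with a median RUNX1 value of 42.9. RXRA, the gene of a retinoid receptor, had 2 sites with RUNX1 at 52.5 and 45.8. SKI at the first of these was 47.5, 6.41 and 37.2, and at the other 55.7, 9.07 and 27.6, so replicate 2 was at percentiles 17.2 and 40.8 of its list. PRAM1, an adaptor gene of myeloid cells, had 2 sites with RUNX1 at 42.9 and 23.2. DHRS3, an enzyme that converts retinal to retinol, had RUNX1 at 13.9 and SKI at 64.6, 68.2 and 49.6.

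Myeloid granule, receptor and maturation genes had 4 of 48 (45 named, 8.89%), and 5 had an intronic RUNX1 peak at all. CYBB, the gene of the catalytic subunit of the phagocyte NADPH oxidase, had 3 sites. These lay between 33511 and 24765 bp upstream of its TSS, and were alike, with RUNX1 at 41.3, 39.7 and 36.7 and SKI in replicate 1 at 136, 129 and 124. CD44, an adhesion receptor, had 2 sites, with RUNX1 at 49.5 and 9.26. FLT3, a receptor tyrosine kinase mutated in many leukaemias, had a weak site with RUNX1 at 10.95 and SKI at 65.4, 11.0 and 6.96. NCF1, another oxidase subunit gene, had RUNX1 at 22.8, but it has near-identical pseudogenes, so that value is uncertain.

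Kinases and phosphatases of immune signalling had 8 of 56 genes (all named) with 12 sites and a median RUNX1 value of 22.6. PTPRE, a receptor-type phosphatase gene, had RUNX1 at 73.0 and SKI at 74.4, 15.3 and 50.2. INPP5D encodes SHIP1, which removes a phosphate from the product of PI3-kinase. Its stronger site, 1780 bp downstream of the TSS, had RUNX1 at 65.4 and SKI at 96.6, 35.2 and 25.8. TYK2, a Janus kinase gene, had RUNX1 at 56.55 and SKI at 128, 46.0 and 51.4, and JAK1 of the same family had a weaker one, with RUNX1 at 10.8. PRKCD, the gene of protein kinase C delta, had 2 neighbouring RUNX1 peaks, of 34.95 and 25.8, over a single SKI peak of 69.1 in control cells. PIK3AP1, FGR and MAP3K5 completed the group.

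Cytoskeletal regulators had the largest share of the lists, 12 of 49 genes (46 named, 26.1%) with 19 sites and a median RUNX1 value of 20.3. Beside ARHGEF12, DIAPH1, a formin that builds actin filaments, had 3 sites with RUNX1 at 50.2, 28.8 and 25.9. SKI in replicate 2 was between 8.73 and 11.0 at the DIAPH1 sites, around the middle of that list, whose median was 10.35. PREX1, an exchange factor for Rac, had 2 sites with RUNX1 at 40.5 and 31.75. LCP1, the gene of the actin-bundling L-plastin of white blood cells, had 2 sites that were alike, with RUNX1 at 31.5 and 30.7. The exchange factor genes VAV1, VAV2 and VAV3 had 1 site each. Their RUNX1 values were 11.9, 6.24 and 7.44, all under the lower quartile of the co-bound sites. SKI there was 72.9, 15.6 and 18.2 at VAV1. It was 89.4, 17.5 and 20.5 at VAV2, and 96.4, 19.7 and 9.88 at VAV3. The medians of all co-bound sites were 72.2, 15.9 and 19.6 in these lists, so VAV1 was near them in each and VAV3 was below them in control cells. ARHGAP26 with 3 sites, ARHGAP18 with 2, and ARHGEF7, DOCK8 and TIAM2 with 1 each made up the rest.

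Corepressor and chromatin regulators had 4 of 47 genes (46 named, 8.70%). HDAC4, a class IIa histone deacetylase gene, had RUNX1 at 65.9 and SKI at 68.3, 14.1 and 15.2. ARID5B and HDAC9 had RUNX1 at 21.6 and 18.9. NF-kappaB and inflammatory signalling had 1 gene of 46 (45 named, 2.22%), TNFAIP8, with RUNX1 at 30.75, a share not above that of all genes. Of the lists for other cell types, lymphoid markers had 1 of 35 (BANK1, with RUNX1 at 30.5) and liver and muscle markers 1 of 28 (RYR1, with RUNX1 at 26.4), where 6 were named, so that its share of 16.7% was as high as that of TGF-beta signalling. Erythroid and megakaryocytic markers had 0 of 27 and neuronal markers 0 of 28, of which 16 and 14 were named in any list. These lists describe where peaks lie and cannot check the identity of the cells.

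Most genes had a single co-bound site. The 1021 sites were nearest to 874 genes, of which 760 had 1 site, 86 had 2, 24 had 3, 3 had 4 and 1 had 5. The gene with 5 was INPP5A, an inositol phosphate 5-phosphatase gene on chromosome 10, where every RUNX1 peak was a co-bound site. Its RUNX1 values were 22.0, 29.2, 23.3, 35.7 and 20.2 in order along the chromosome, and its SKI values in replicate 1 were 46.4, 57.2, 46.5, 68.1 and 104. The second and the third were 34001 bp downstream and 32440 bp upstream of a TSS although they lie close together, since the nearest transcripts differ. MBP, the gene of myelin basic protein, which also has transcripts in blood cells, had 4 weak sites out of 10 RUNX1 peaks, with RUNX1 between 6.87 and 10.35. ANKRD33B-AS1, an antisense RNA gene, had 4 with RUNX1 between 10.4 and 18.0, and the strongest shared its SKI peak with a neighbour. In 16 of the 28 genes with 3 or more co-bound sites, every intronic RUNX1 peak was one.

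Along the genome, 149 sites (14.6%, 12.6 to 16.9) had another co-bound site within 10 kb, and 295 (28.9%) within 50 kb. The largest group by the wider distance held 5 sites over 99917 bp around PREX1 and the microRNA gene AL035106.1, with RUNX1 from 8.98 to 40.5. Groups of 4 lay at INPP5A, at RASA3, which encodes a RAS inhibitor, at RAB27A with RSL24D1, at MBP and at ANKRD33B-AS1. Groups of 3 included CD34 with C1orf132 on chromosome 1, over 79178 bp, with RUNX1 from 10.1 to 31.9. CD34 is the surface marker of blood progenitors. LMTK2 had its 3 sites within 6610 bp, with RUNX1 from 32.7 to 59.5.

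SKI peaks at the co-bound sites ranked high in replicate 1 and were spread widely in the other lists. Median percentiles were 93.9 (quartiles 88.5 and 97.5), 75.4 (52.5 and 89.3) and 78.0 (58.2 and 91.6) in the order above. No co-bound site fell in the lowest 25% of replicate 1, where 78 did in replicate 2 and 57 in control cells. The list of replicate 1 is far longer, with 54841 peaks against 14431 and 14019. The same place from the top thus gives a higher percentile there, and the contrast does not show stronger SKI in replicate 1. The rule used these peaks, so the percentiles are a description. The RUNX1 peaks themselves were only somewhat above the middle of their list, with a median fold enrichment of 21.1 (quartiles 13.65 and 34.2) against 18.3 for all RUNX1 peaks. For intronic RUNX1 peaks with SKI in 2, 1 and 0 lists the medians were 17.9, 17.01 and 12.25. By quartile of RUNX1 fold enrichment, 41.4%, 41.6%, 50.7% and 65.8% of intronic peaks were co-bound, with the step in the upper quartiles. TSS-class and intergenic RUNX1 peaks on SKI in all 3 lists had median RUNX1 values of 19.6 and 21.0, close to the intronic one.

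Within the set, strength of RUNX1 was only weakly related to strength of SKI. The set holds only sites with SKI in all 3 lists, so RUNX1 peaks with SKI in fewer lists do not enter. Over all intronic RUNX1 peaks the co-bound share rose with RUNX1, from 41.4% in the lowest quartile to 65.8% in the highest. Over the 1021 sites the Spearman correlation between RUNX1 and SKI fold enrichment was 0.173 and 0.237 in the unmodified lists and 0.277 in the control list. Both unmodified SKI lists had a correlation of 0.619 with each other. The control list had 0.481 with replicate 1 and 0.641 with replicate 2. Sites of 1 library share its depth and are not independent, so these values are descriptions. Co-bound sites in the top 10% of all 3 SKI lists numbered 154 (15.1%), and 41 of these were also in the top 10% of RUNX1 peaks. Of all 1021 sites, 140 (13.7%) were in that top 10%, which is a lower share than 41 of 154. Chosen after their values were seen, the highest SKI peaks were at HPS3 in replicate 1 (191, with RUNX1 at 40.3), SH3KBP1 in replicate 2 (208, with RUNX1 at 17.3) and ARID3B in control cells (183, with RUNX1 at 20.2). SH3KBP1 encodes a CBL-binding adaptor and ARID3B a DNA-binding protein. RUNX1 at SH3KBP1 and ARID3B was thus below the median of the set, and at HPS3 above its upper quartile.

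RUNX1 and SKI summits lay close together. The distance from the RUNX1 summit to the SKI summit had a median of 31 bp (quartiles 13 and 66), 33 bp (14 and 68) and 36 bp (18 and 66) in the SKI lists. The SKI peaks were much wider than this, with median widths of 1381, 474 and 781 bp. Within 50 bp lay 67.5% (64.5 to 70.3), 66.7% (63.8 to 69.5) and 64.5% (61.6 to 67.4) of the summits. All 3 SKI summits were within 50 bp of the RUNX1 summit at 441 sites (43.2%), and at least 1 was more than 300 bp away at 114 (11.2%). At TSS-class sites the medians were 33, 37 and 38 bp but the upper quartiles were 108, 105 and 92.3 bp, beside median SKI widths of 1989.5, 581.5 and 900 bp. Intergenic sites had medians of 28, 33 and 33 bp and upper quartiles of 58, 60.3 and 63 bp. The spread at introns was thus near that of intergenic sites and narrower than at promoters, where SKI peaks were broader. Close summits were not particular to the co-bound sites. Intronic RUNX1 peaks with SKI in 2 lists and in 1 list had medians of 25 and 23 bp in replicate 1, where SKI widths were 974 and 714.5 bp. Those with SKI in 2 lists had medians of 36 bp in replicate 2 and 39.5 bp in control cells, somewhat farther than co-bound sites. SKI summits lay on the 5′ side of the RUNX1 summit, along the nearest transcript, at 487, 496 and 510 sites, so neither side was favoured beyond counting error.

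**Figure D3:**
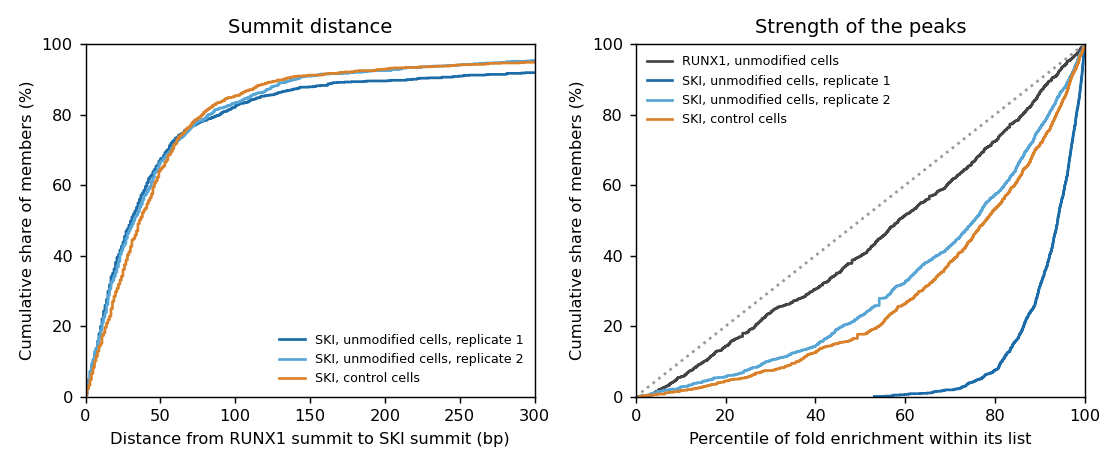
Cumulative share of the 1021 intronic co-bound sites (vertical axes, percent) by distance from the RUNX1 to the SKI summit (left, bp, up to 300) and by percentile of fold enrichment within each list (right, the dotted line marks an even spread over the list). The summit curves pass 50% between 31 and 36 bp in all 3 SKI lists. The percentile curve of replicate 1 stays to the right of the others, which come from shorter lists.

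Co-bound intronic sites lay nearer to a TSS than the other intronic RUNX1 peaks. The median distance was 8391 bp (quartiles 3931 and 19031), against 11042 bp (4843 and 24002) for intronic RUNX1 peaks with SKI in 0 to 2 lists and 19214 bp for intergenic co-bound peaks. Within 10 kb lay 56.1% (53.1 to 59.1) of co-bound and 46.4% (43.4 to 49.5) of other intronic peaks. More than 50 kb away were 3.62% (2.64 to 4.96) and 8.37% (6.82 to 10.2). RUNX1 strength did not follow the distance: the median was 21.1 within 2500 bp, 20.7 between 10 and 50 kb, and 22.7 for the 37 sites farther away. Without replicate 2 of SKI the median distance was 9240 bp. The farthest site was 197166 bp from the TSS of RNLS, with RUNX1 at 56.7 and SKI at 49.4, 8.51 and 14.7. ST13P2, MIR4282, RNU7-120P and PPM1L came next, the last with RUNX1 at 48.8 and SKI at 119, 27.01 and 76.7. The nearest TSS was upstream of the site, with transcription running toward it, in 56.8% (53.7 to 59.8) of cases, which was 56.9% for the other intronic peaks.

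**Figure D4:**
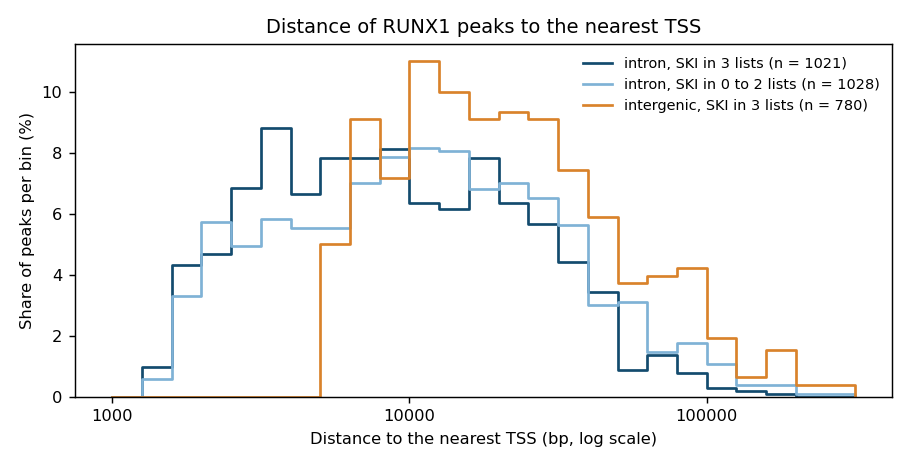
Share of peaks per bin (vertical axis, percent) by distance to the nearest TSS (horizontal axis, bp, log scale) for intronic co-bound RUNX1 peaks, other intronic RUNX1 peaks and intergenic RUNX1 peaks with SKI in 3 lists. The co-bound intronic curve has its mode below 10000 bp and the intergenic one, which starts near 5000 bp by definition of its class, lies farther out.

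The nearest gene was protein-coding at 648 sites (63.5%, 60.5 to 66.4), a share of 64.4% for the other intronic peaks and 38.3% for intergenic co-bound ones. Pseudogenes followed with 93, lincRNA genes with 80, antisense RNA genes with 77 and microRNA genes with 35. Promoters of the 538 protein-coding genes were occupied as well in part. A TSS-class SKI peak was present in all 3 lists for 207 (38.5%, 34.5 to 42.7). The share was 27.6% (23.8 to 31.8) of 478 genes named by other intronic RUNX1 peaks alone, and 24.1% of all protein-coding genes named in the lists. A TSS-class RUNX1 peak was present for 73 (13.6%, 10.9 to 16.7), against 11.1% (8.58 to 14.2) and 6.34%. The intervals for RUNX1 at promoters overlap between both kinds of intronic genes, and those for SKI do not. The rule itself chose co-bound sites by SKI peaks in all 3 lists, and those peaks were not left out of the promoter counts. The SKI difference therefore cannot be told apart from the rule. Genes enter these counts only through a peak, so the comparison is among bound genes.

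The share of intronic RUNX1 peaks that were co-bound differed between chromosomes. It was highest on chromosome 19, with 42 of 53 (79.2%, 66.5 to 88.0), followed by chromosome 22 with 47 of 73 (64.4%) and chromosome 9 with 52 of 83 (62.7%). It was lowest on chromosome 4, with 35 of 103 (25.6 to 43.6%), on chromosome 8 with 15 of 44 (34.1%) and on chromosome 3 with 50 of 140 (35.7%). Both shorter SKI lists, whose peaks the rule requires, were high on chromosome 19 and low on chromosome 4. On chromosome 8 replicate 2 was low, at 36.4%, but control cells overlapped 65.9%, near their 68.3% over all introns. Replicate 2 overlapped 81.1% of intronic RUNX1 peaks on chromosome 19 and 35.0% on chromosome 4, and control cells 86.8% and 54.4%, whereas replicate 1 overlapped 84.7% or more on every chromosome. Non-intronic RUNX1 peaks ran in a like order, from 32.7% on chromosome 8 to 70.5% on chromosome 19, with a Spearman correlation of 0.688 over 23 chromosomes, which share all libraries. The part of the shorter lists in this order was not tested.

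SKI in control cells was set against SKI in unmodified cells. The design gives 1 control list and 2 unmodified lists, so there is no test, and the gap between the unmodified lists is the only measure of spread. Ranked among the 1021 sites themselves, which removes the difference in list length, the control rank lay above both unmodified ranks at 332 sites, between them at 311 and below both at 378. The unmodified lists differed by a median absolute rank gap of 14.9 percentile points. The control list was 14.4 points from replicate 2 and 19.001 from replicate 1. The control list was thus about as far from replicate 2 as replicate 1 was, and farther from replicate 1 than replicate 2 was.

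By percentile within the whole lists, which keeps the difference in list length, the control cells were above both unmodified lists at 123 sites, between them at 466 and below both at 432, with a median shift of -4.45 points from the unmodified mean. Single gains and losses were ranked by this shift. The largest gain in control cells was near TMEM217, at chr6:37247458-37248127, with SKI at 55.9, 6.38 and 43.6 and RUNX1 at 29.8. RXRA came next, at chr9:137287848-137288589, and NUTM2A and AC080037.1 were also among the 5 largest. In all 5, the percentile in replicate 2 was 17.4 or lower, so the gain is largely against that list. The control percentile at RXRA was 93.6, that of replicate 1 was 85.3 and that of replicate 2 was 17.2. The largest loss was near KIAA0226L, at chr13:46967107-46967622, with SKI at 84.5, 18.6 and 6.0. CDC42EP1, which encodes an effector of the GTPase CDC42, had 53.2, 16.0 and 5.29, and CALCOCO2, an autophagy receptor gene, 41.9, 13.1 and 5.74. The remaining sites of this kind were nearest a U3 and a snoU13 gene. At these 5 percentiles in both unmodified lists were 65.9 or more and those in control cells 11.4 or less. Their control peaks were small, with 34 to 63 tags against a median of 104 at all co-bound sites. The unmodified mean includes replicate 1, whose long list raises its percentiles, so the shift leans toward losses. RUNX1, mapped in unmodified cells only, stood at 18.4 near KIAA0226L and 33.5 near CDC42EP1.

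**Figure D5:**
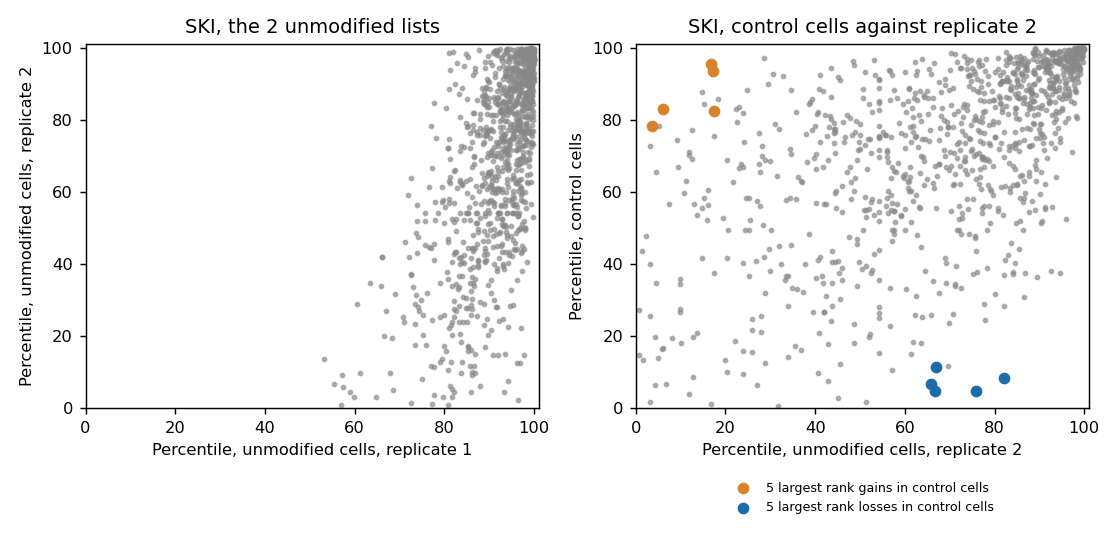
Percentile of SKI fold enrichment within its list at each of the 1021 sites (points), for replicate 2 against replicate 1 of unmodified cells (left) and for control cells against replicate 2 (right), with the 5 largest rank gains (orange) and losses (blue) in control cells. In the left panel all sites lie at 53.1 or more in replicate 1, the longest list, but from 0.766 upward in replicate 2. In the right panel the 5 gains sit at 17.4 or less of replicate 2.

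At the edge of the rule, the shortest overlaps were 2 bp near TBC1D2B, 6 bp near PYHIN1 and 34 bp near ATXN1, each with the SKI peak of replicate 2. Just outside it were intronic RUNX1 peaks that missed a replicate 2 peak by 53 bp near RP11-243J16.7, 63 bp near RNU7-55P and 64 bp near TP53BP2. Their RUNX1 values were 11.05, 45.0 and 12.5. In most cases the overlap was not marginal: the RUNX1 summit lay inside the SKI peak at all 1021, at 999 and at 1018 sites in the 3 lists.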

How the data were processed

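ChIP-seq peak lists of 4 samples of HL60 cells were used, grouped by sample title. The submitters' processing notes name bcl2fastq, Bowtie2, MACS 1.4 and deepTools and the builds hg19 and GRCh37, without their roles. Per the file headers, each peak was deposited with its count of tags, a fold enrichment (a ratio) and a −log10 p-value. The position class, the nearest Ensembl gene and the signed distance to its TSS in bp were read as deposited. The sources used here give no depth and name no control library. Where a RUNX1 peak met several SKI peaks of a list, the one of highest fold enrichment was taken. The −log10 p-value saturates near 310, at 719 of the 1021 sites in SKI replicate 1, so fold enrichment was used for ranks. Shares carry 95% Wilson intervals. The overlap code was checked on simulated peaks. Members, gene lists and the rule for named sites were chosen with earlier results of these data known. Named are the 15 best-ranked sites, the 10 highest and 5 lowest by RUNX1, up to 6 genes per list (further list genes, groups of neighbouring sites and the highest SKI peaks were picked with their values in view), genes with 4 or more sites, the 5 largest rank gains and losses, the 3 nearest the edge of the rule on each side and the 5 farthest from a TSS. Some sites chosen this way are not reported here. SKI peaks over 5000 bp wide were left out of ranked names. The stronger PRAM1 site, with a SKI peak of 5166 bp in replicate 1, is described all the same and enters its list's median. Alternatives were other overlap rules, a stricter threshold, omission of any SKI list, SKI lists shortened to a common length, other strength measures, a distance limit for genes, and joined sites. The planned motif search was not run, since no genome of this build was used. Scripts used matplotlib 3.10.9, scipy 1.17.1, pandas 2.3.3 and numpy 2.4.6 under Python 3.11.15.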

Additional observations from a re-analysis of the deposited data

How the results depend on the processing

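Joining SKI peaks into sites was chosen after seeing the data, and the other alternatives were planned. Of 103 alternative values, 77 stayed within 1.5 times (counts) or within their interval or spread, and 26 moved. The share of intronic RUNX1 peaks on SKI in all 3 lists was 46.8% with overlap of at least 50% of the RUNX1 peak, 46.7% at a −log10 p of at least 10, and 27.1% with SKI lists cut to the 5581 peaks of the RUNX1 list. Leaving out 1 SKI list gave 51.2% to 66.9%, the highest without replicate 2 of unmodified cells. With the cut lists, which hold fewer peaks, the count was 556 sites near 494 genes, the median RUNX1 fold enrichment was 24.0 and 9.35% of sites had a neighbour within 10 kb. The number of sites was 1050 to 1370 with 1 list left out and 1053 for joined sites. The median distance to a TSS was 8200 to 9240 bp with 1 list left out. The mean Spearman correlation between SKI lists was 0.71 with tags in place of fold enrichment, against 0.58. No paired analysis was possible because RUNX1 and the control cells have 1 list each and nothing was tested. The motif search was not run. Depth per library is unknown, which limits any statement on absent peaks.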
